A study of Bos taurus with 27 samples.

Results

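The genes described here are those of the epidermal growth factor (EGF) receptor family and its ligands in the rumen epithelium (RE), the stratified epithelium that lines the largest forestomach of cattle. Members were the probes, other than control probes, whose gene name in the scanner output equals EGFR, ERBB2, ERBB3, EGF, AREG, EREG, HBEGF, TGFA or BTC. Of these 9 names, 6 had a probe, with 1 probe each, among 15008 probes on the array: the receptors EGFR, ERBB2 and ERBB3 and the ligands EGF, HBEGF and BTC. A probe for AREG carried an older locus name and was recognised through its RefSeq accession. A probe for EREG carried only a transcript identifier and was recognised from its deposited description. Both lie outside the rule, were kept out of every count of members, and are described apart. For TGFA no probe was found, and it is not analysed here.

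The RE of the same 9 castrated and fistulated Japanese Black beef cattle was biopsied when they were 14 (Early), 21 (Middle) and 29 (Late) months old. All 9 cattle ate concentrate and rice straw throughout, so no stage is an untreated control. Age, body weight and time on the diet advanced together with the stage, and the ration changed with it. The paper reports a larger share of concentrate at the Middle and Late stages than at the Early stage. It also reports less crude protein in the concentrate at each later stage. Each of the 27 biopsies was read on its own 1-color bovine array. The labels number the arrays within each stage, and arrays of the same number were taken as the same animal. The differences compared within animals were Middle minus Early (first period), Late minus Middle (second period) and Late minus Early (total period), and the first and second periods share the 9 Middle arrays.

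The EGF receptors are tyrosine kinases of the cell surface. EGF, amphiregulin (AREG), heparin-binding EGF-like growth factor (HBEGF), betacellulin (BTC) and epiregulin (EREG) are made as membrane-bound precursors, are cut free by proteases of the ADAM family, and bind EGFR. BTC, HBEGF and EREG also bind ERBB4. ERBB2 has no known soluble ligand and works as the partner of the other receptors, whereas ERBB3 binds neuregulins and has little kinase activity of its own. In stratified epithelia these receptors are known for driving proliferation of basal cells, migration and repair, through the RAS-MAPK and PI3K-AKT cascades.

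The sequences of 3 probes are shown because ERBB2, HBEGF and BTC had the largest differences among the members. Each is 60 bases, printed 5′ to 3′ with no part in capitals, and each has a reading frame with no stop codon. The design of the array placed them on bosTau6 (UMD 3.1) at chr19:40744103-40744495 for ERBB2, chr7:53217776-53217835 for HBEGF and chr6:91434859-91436923 for BTC. The ERBB2 and BTC probes cover 393 and 2065 bases of the genome, more than their own length, and so cross at least 1 exon junction. ERBB2 was given with its coordinates ascending, and HBEGF and BTC descending.
ERBB2: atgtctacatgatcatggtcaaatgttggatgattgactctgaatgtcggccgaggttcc
HBEGF: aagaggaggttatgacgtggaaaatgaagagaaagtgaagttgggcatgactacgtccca
BTC: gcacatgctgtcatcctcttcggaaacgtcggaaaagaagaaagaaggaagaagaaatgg

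A level below is the log2 of the processed signal minus the median of the array, so 0 is the typical probe and a difference of 1 is a doubling relative to that median. The Middle arrays were the dimmest. Their median signal was 8.22 to 28.7, against 35.2 to 48.7 at the Early stage and 32.2 to 47.0 at the Late stage, and 48.8 to 71.6% of their probes were well above background, against 68.9 to 78.2% and 68.5 to 73.8%. The arrays also followed the stages by slide. The first slide held 8 Early arrays, slide 2 held 1 Early and 7 Middle arrays, slide 3 held 2 Middle arrays, and slides 4 and 5 held the Late arrays alone, so the slide and the Late stage cannot be told apart. Of 8 markers of basal keratinocytes, 8 were well above background on all 9 arrays at the Early and Late stages, and 6 at the Middle stage. Of 12 suprabasal and cornified markers 7, 6 and 7 were so at the Early, Middle and Late stages. Markers of other cells were also seen, with 7, 7 and 8 of 8 for fibroblasts and 6, 5 and 6 of 7 for endothelium. The biopsies thus held keratinocytes and other cells, and these markers do not tell the rumen from other stratified epithelia. In a biopsy, fewer cells of a type and less RNA per cell cannot be told apart.

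During the first period 5 of the 6 members were differentially expressed genes (DEGs, limma adjusted P below 0.05), with EGFR and BTC higher and ERBB2, ERBB3 and HBEGF lower. Of all 15008 probes 66.5% were DEGs in this period, 45.3% higher and 21.3% lower. During the second period 4 of 6 were DEGs, ERBB2 and ERBB3 higher and EGFR and HBEGF lower, against 71.5% of all probes, 27% higher and 44.6% lower. During the total period 2 of 6 were DEGs, BTC higher and HBEGF lower, against 20.1% of all probes, 11.2% higher and 8.93% lower. With 6 members, counts of this size lie near the shares over all probes and are no result about the family as a group. The median log2 difference of all probes was 0.32, −0.27 and 0.03 in the 3 periods, and that of the 6 members was −0.21, 0.12 and 0.08. The arrays of the 2 stages did not overlap for 0, 0 and 1 of the 6 members, against 13.0%, 20.7% and 6.55% of all probes.

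**Figure D1:**
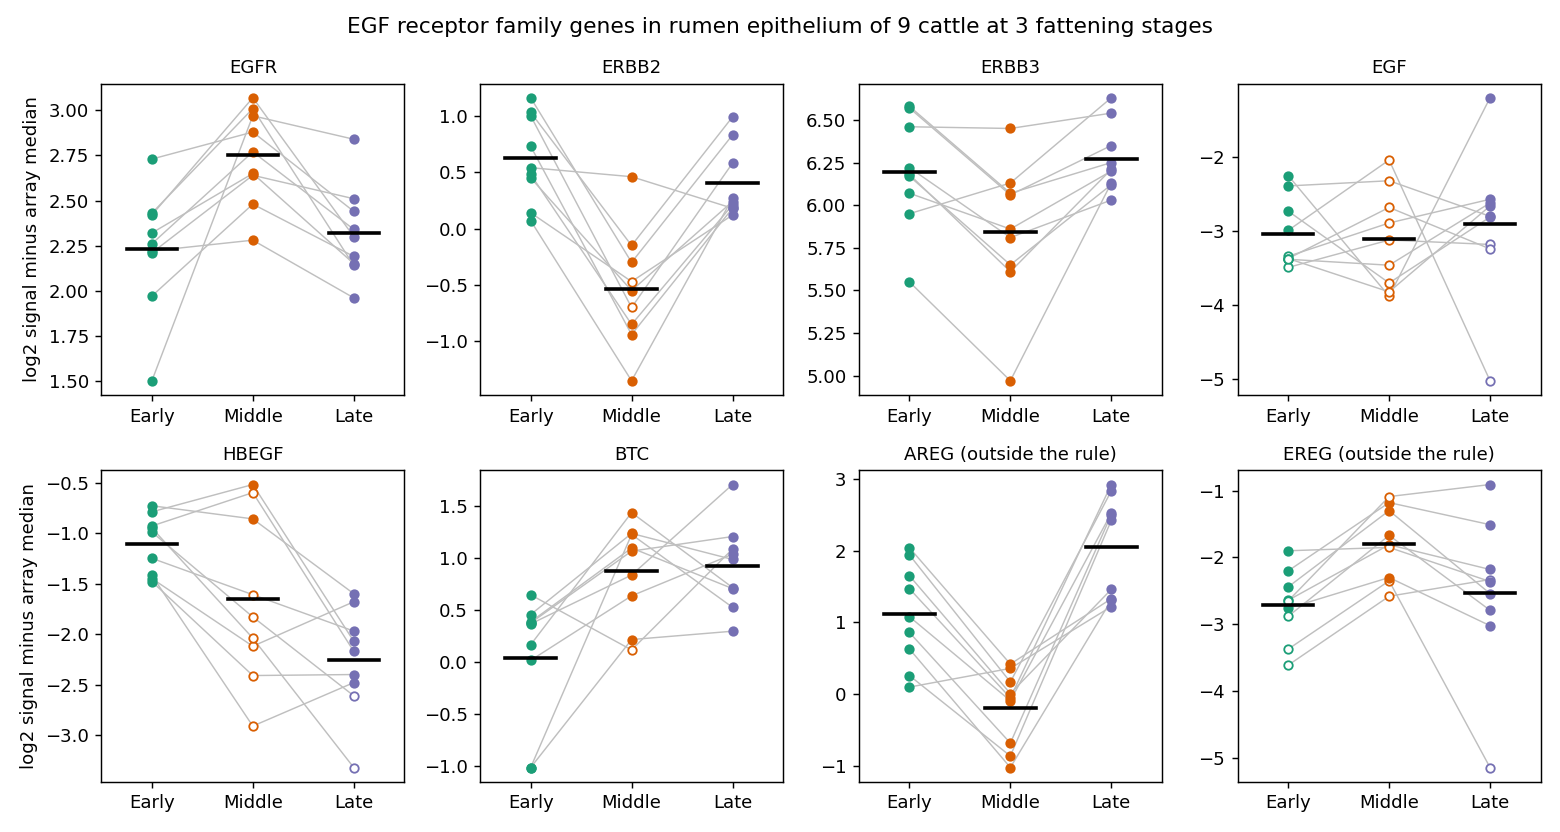
Log2 signal minus the array median (vertical axis, with its own range in each panel) for the 6 members and for AREG and EREG, at the Early, Middle and Late stages. Points are arrays, grey lines join the same animal, open points were not well above background, and black bars are means of 9 arrays. ERBB2 dips at the Middle stage, HBEGF is lower at the Late than at the Early stage without overlap, and the EGF points are open on all 9 Middle arrays.

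EGFR, the receptor shared by most ligands of the family, was higher at the Middle stage. Early levels were 1.5 to 2.73 (median 2.26), Middle levels 2.28 to 3.07 (median 2.77) and Late levels 1.96 to 2.84 (median 2.30). Animal 9 had the lowest Early and the highest Late value, and the stages overlapped in every comparison. The means were 2.23 ± 0.34, 2.75 ± 0.26 and 2.32 ± 0.26 (SD, n = 9). The first period difference was 0.52 (SE 0.14, limma adjusted P = 0.00351) and was positive in 9 of 9 cattle, and 58.8% of all probes had a lower difference. The second period difference was −0.43 (SE 0.14, limma adjusted P = 0.0103) and was negative in 9 of 9 cattle, and 44.4% of all probes had a lower difference. The total period difference of 0.09 (95% interval −0.21 to 0.38) did not pass the test. The rise and fall are relative to the array median, because the processed signal itself was 119 at the Middle stage (median of 9 arrays) against 186 and 187 at the Early and Late stages. With normexp background correction the differences turned to −0.03 and 0.16, with adjusted P of 0.867 and 0.384. Without the 3 Middle arrays that had the fewest probes well above background, those of cattle 4, 8 and 9, the second period difference was −0.30 and was no longer a DEG (adjusted P = 0.105).

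ERBB2, the partner receptor without a ligand of its own, was lower at the Middle stage than at both other stages. Early levels were 0.07 to 1.16 (median 0.54), Middle levels −1.35 to 0.46 (median −0.55) and Late levels 0.12 to 0.99 (median 0.24). Only animal 8 kept a positive level at the Middle stage, and its 0.46 was what made the stages overlap with the Early range and the Late range. The means were 0.62 ± 0.39, −0.54 ± 0.52 and 0.40 ± 0.32 (SD, n = 9). The probe was well above background on 9, 7 and 9 arrays, so no fold is given. The level fell by 1.16 during the first period (SE 0.15, adjusted P = 5.92e-06), in 9 of 9 cattle. It rose by 0.94 during the second period (SE 0.15, limma adjusted P = 3.03e-05), in 8 of 9 cattle. The total period difference was −0.22 (95% interval −0.55 to 0.10) and did not pass the test. Among all probes, 5.55% had a lower first period difference than ERBB2. With normexp the differences were smaller, −0.42 and 0.27, and both remained DEGs.

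ERBB3, the neuregulin-binding receptor, had a smaller dip at the Middle stage. Early levels were 5.55 to 6.58 (median 6.18), Middle levels 4.97 to 6.45 (median 5.86) and Late levels 6.03 to 6.63 (median 6.21). Animal 6 was the lowest at the Early and Middle stages, and the stages overlapped in every comparison. The probe was well above background on all 27 arrays. The first period difference was −0.35 (SE 0.12, limma adjusted P = 0.0139), with 8 of 9 cattle lower. The second period difference was 0.43 (SE 0.12, limma adjusted P = 0.00314), with 9 of 9 cattle higher. Of all probes, 22.7% and 75.2% had a lower difference in the first and second periods. The total period difference of 0.08 (95% interval −0.17 to 0.33) did not pass the test, and it turned to −0.04, −0.11 and −0.12 with 75th percentile scaling, quantile normalization and cyclic loess. The first period call held under 18 of 24 alternatives. Among those where it was lost were normexp, at −0.72 (adjusted P = 0.0581), and the fit without the animal block, at −0.35 (adjusted P = 0.0526).

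EGF, the ligand that gave the family its name, was near the limit of the array. It was well above background on 4 Early, 0 Middle and 6 Late arrays, so no fold is given. Early levels were −3.49 to −2.25, Middle levels −3.88 to −2.04 and Late levels −5.02 to −1.20, and the stages overlapped widely. None of the 3 differences (−0.07, 0.20 and 0.13, each with an SE of 0.36) passed the test. The sign and the call changed with the processing. During the first period the difference was 0.23 with normexp (adjusted P = 0.0172) and −0.93 with quantile normalization (adjusted P = 0.0134). During the second period it was −0.23 with normexp (adjusted P = 0.0146) and 1.22 with quantile normalization (adjusted P = 0.00168).

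HBEGF, a ligand known from wound repair in skin, was lower at the Late stage. Early levels were −1.48 to −0.73 (median −0.99), Middle levels −2.91 to −0.52 (median −1.83) and Late levels −3.32 to −1.60 (median −2.17). All 9 Late values lay below all 9 Early values, while the Middle values spanned both. The means were −1.11 ± 0.29, −1.66 ± 0.83 and −2.25 ± 0.53 (SD, n = 9). Over the total period the level fell by 1.14 (SE 0.22, limma adjusted P = 0.000982), in 9 of 9 cattle. Among all probes, 2.12% had a lower difference. The falls of the separate periods were smaller, with −0.55 in the first (SE 0.22, adjusted P = 0.0323, 7 of 9 cattle) and −0.60 in the second (SE 0.22, adjusted P = 0.0183, 6 of 9 cattle). Of all probes, 16.7% and 39.6% had a lower difference in these periods. The probe was dim, with 9 Early, 2 Middle and 7 Late arrays well above background, so no fold is given. Its processed signal was 13.5 to 22.5 at the Early stage (median 19.7) and 3.24 to 11.4 at the Middle stage (median 5.28). At the Late stage it was 3.15 to 14.4 (median 7.77). The second period fall is thus relative to the array median, as the median signal itself was higher on Late than on Middle arrays. With normexp the total period difference was −0.19, still a DEG, and the first period difference turned to 0.09. The first period call was lost when animal 2, 6, 7 or 8 was left out (−0.43 to −0.51, adjusted P from 0.0631 to 0.0962), and the second period call when animal 3 or 4 was left out (−0.48 each, adjusted P = 0.0654 and 0.0638). The first period call held under 10 of 23 alternatives, and under 12 it was lost with the sign kept. These 12 included 75th percentile scaling (−0.48, adjusted P = 0.0609) and the methods' paired test (adjusted P = 0.0504). With normexp, where the sign turned, the call was lost as well (adjusted P = 0.151). The second period call was also lost with quantile normalization (−0.32, adjusted P = 0.229), with the methods' paired test (adjusted P = 0.0739) and without the 3 dimmest Middle arrays (−0.46, adjusted P = 0.113).

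BTC, a ligand of EGFR and ERBB4, was higher at the Middle and Late stages than at the Early stage. Early levels were −1.01 to 0.65 (median 0.37), Middle levels 0.12 to 1.44 (median 1.07) and Late levels 0.30 to 1.71 (median 0.99). The 2 lowest Early values, both −1.01, came from animals 3 and 4, and the stages overlapped. The means were 0.05 ± 0.62, 0.88 ± 0.47 and 0.92 ± 0.41 (SD, n = 9). The level rose by 0.83 during the first period (SE 0.20, adjusted P = 0.00132), in 8 of 9 cattle, and 70.8% of all probes had a lower difference. That rise is relative to the array median, as the median processed signal of BTC fell from 48.8 on Early arrays to 25.2 on Middle arrays. On Late arrays this signal was 75.8. The second period difference was 0.05 (95% interval −0.37 to 0.46) and did not pass the test. Over the total period the level rose by 0.88 (SE 0.20, limma adjusted P = 0.00417), in 9 of 9 cattle, a 1.83-fold difference, and 97.9% of all probes had a lower difference. The probe was well above background on 9, 8 and 9 arrays. With normexp the first period difference was 0.22 (adjusted P = 0.0635) and the total period difference 0.45 (adjusted P = 0.00945).

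**Figure D2:**
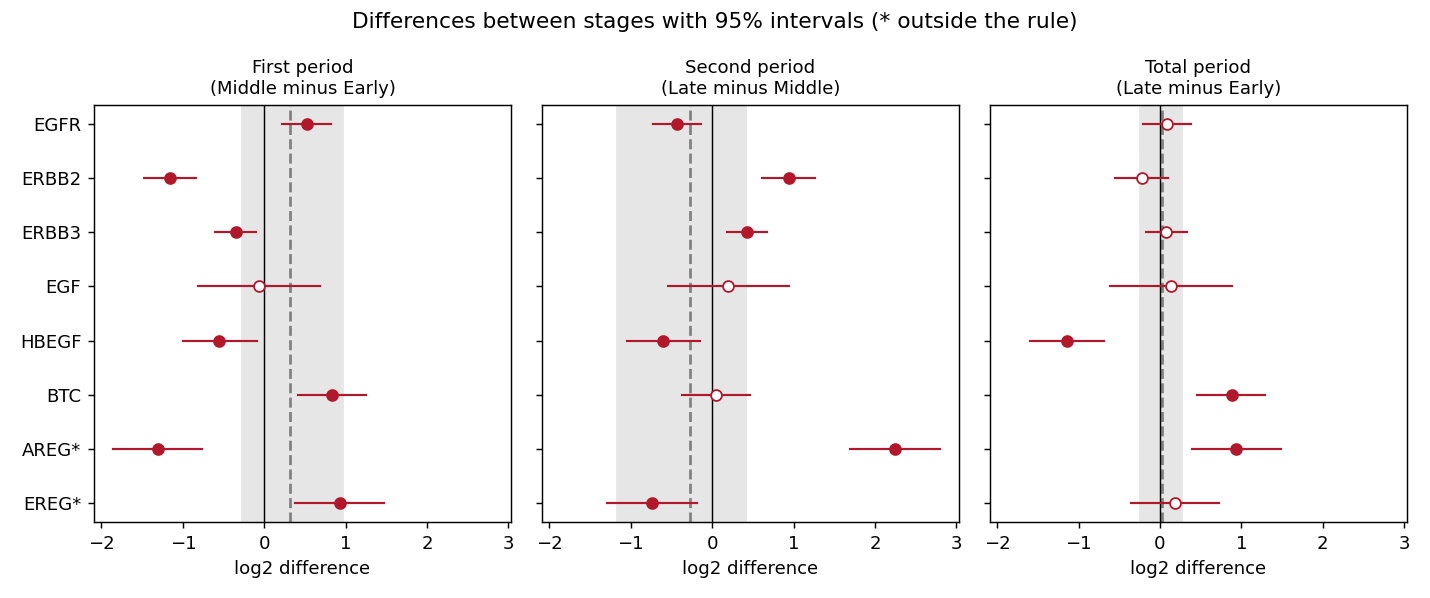
Log2 difference between stages (horizontal axis) for the 6 members and for AREG and EREG, in each period. Points are limma estimates with 95% intervals, filled where the adjusted P was below 0.05, the grey band and dashed line are the quartiles and the median over all 15008 probes. ERBB2 lies left of the band in the first period and right of it in the second, and HBEGF and BTC lie outside the band on opposite sides in the total period.

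AREG, recognised by accession and not by name, showed the largest difference among the 8 probes described. Early levels were 0.10 to 2.04 (median 1.08), Middle levels −1.02 to 0.42 (median −0.05) and Late levels 1.22 to 2.92 (median 2.42). All 9 Late values lay above all 9 Middle values. The Late values lay in 2 clumps, 1.22 to 1.46 in animals 1, 2, 7 and 9 and 2.42 to 2.92 in the other 5. The level fell by 1.31 during the first period (SE 0.26, adjusted P = 0.000295), in 8 of 9 cattle. It rose by 2.25 during the second period (SE 0.26, limma adjusted P = 6.51e-07), in 9 of 9 cattle, a 4.75-fold difference that exceeded that of 99.2% of all probes. The total period difference was 0.94 (SE 0.26, limma adjusted P = 0.0158), positive in 7 of 9 cattle, and without animal 5 it was 0.79 (adjusted P = 0.0567). The probe was well above background on all 27 arrays. With normexp the differences were −0.57, 1.27 and 0.69, and all remained called. EREG, a related ligand recognised by its description, was dim, with 5, 4 and 7 arrays well above background. Its difference was 0.93 in the first period (SE 0.26, adjusted P = 0.00468, 9 of 9 cattle) and −0.74 in the second (SE 0.26, adjusted P = 0.0168, 7 of 9 cattle). Both differences are relative to the array median. The median processed signal of EREG itself went the other way, with 6.11 on Early, 4.96 on Middle and 7.31 on Late arrays. Of all probes, 73.8% and 35.9% had a lower difference in these periods. With normexp the first period difference was 0.30, and under the random slide block, the fixed one and within slide 2 it was 0.73, 0.29 and 0.02, with adjusted P of 0.155, 0.904 and 0.99. The second period value was −0.32 with quantile normalization (adjusted P = 0.26).

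The first period could be compared within slides and scan days, because slide 2 held both stages and slides 1 and 2 were scanned on the same day. Within that scan day the differences were 0.45 for EGFR (adjusted P = 0.0246), −1.31 for ERBB2 (5.78e-05), −0.42 for ERBB3 (0.0706), −0.53 for HBEGF (0.156), 0.94 for BTC (0.00553) and −1.27 for AREG (0.00231). All kept their direction, and 58.2% of all probes were called. Within slide 2, where animal 9 was the sole Early array, 0.0467% of all probes were called and no member was among them. The differences were 1.18 for EGFR, −0.83 for ERBB2, −0.18 for ERBB3, −0.39 for HBEGF, 0.62 for BTC and −1.80 for AREG (adjusted P = 0.19). With the slide as a fixed block, ERBB2 alone among the 6 members was a DEG (−1.99, adjusted P = 0.0126), EGFR was 1.13 (adjusted P = 0.0701), BTC was 1.86 (adjusted P = 0.0839), HBEGF was −0.29, ERBB3 turned to 0.16 and AREG was −0.99 (adjusted P = 0.602). In that fit 8.26% of all probes were called. For the other periods the slide could be fitted only as a random block, which called 45.5%, 50.1% and 1.67% of all probes in the first, second and total periods. In that fit ERBB2 was the member called in the second period (0.81, adjusted P = 0.00885), AREG also remained called (2.20, adjusted P = 0.00104), and the total period differences of HBEGF (−1.06, adjusted P = 0.248), BTC (1.03, adjusted P = 0.159) and AREG (0.74, adjusted P = 0.582) were not called.

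**Figure D3:**
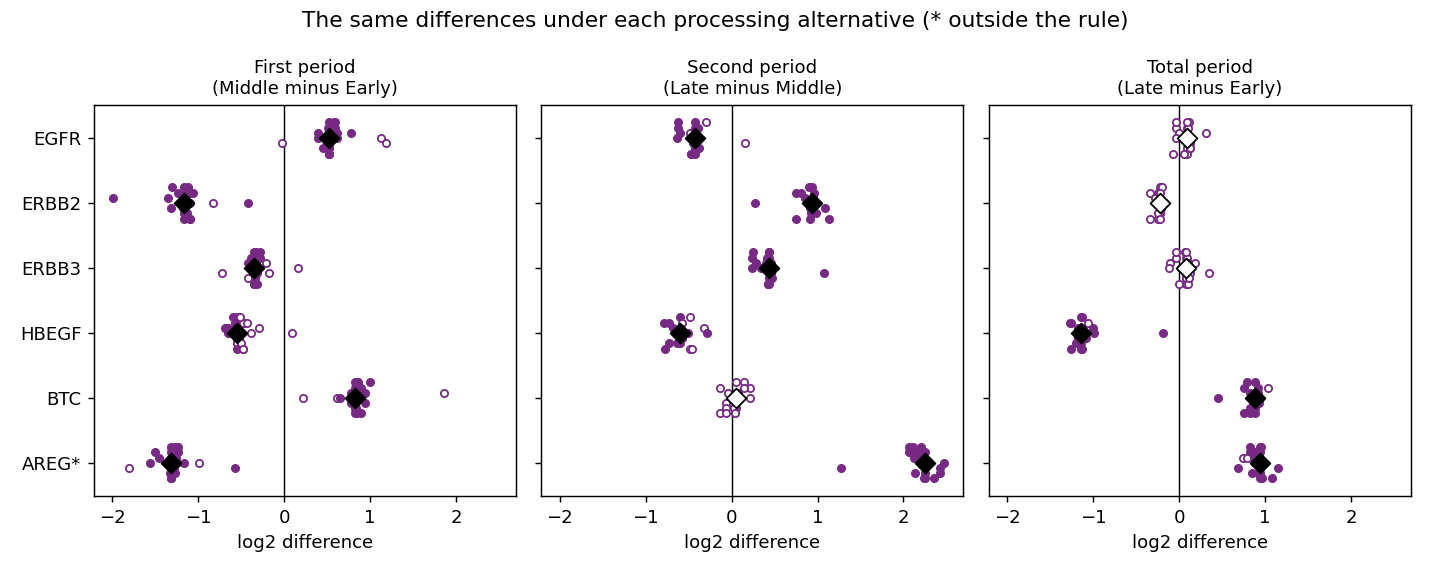
Log2 difference (horizontal axis) of 5 members and AREG in each period. Black diamonds are the values reported, small circles the same difference under each other way of processing, filled where the adjusted P was below 0.05. ERBB2 and AREG keep their sign everywhere, and EGFR, ERBB3 and HBEGF each cross 0 under an alternative in the first period.

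Marker lists of cell types gave different counts over all their probes and over those well above background on all arrays of both stages (bright). Of 8 basal keratinocyte markers, 2 were higher and 3 lower in the first period, and 0 higher and 2 lower in the second. Of the 6 bright ones 2 were higher and 2 lower, and then 0 higher and 2 lower. Of 8 fibroblast markers, 1 was higher and 1 lower, and then 1 higher and 3 lower. Of 7 endothelium markers, 2 were higher and 1 lower, and then 0 higher and 2 lower. Of 7 smooth muscle markers, 4 were higher in the first period and 6 lower in the second, and of the 3 bright ones 2 were higher and then 3 lower. Their mean level was 0.00 to 2.23 on Early, 0.11 to 3.07 on Middle and −0.08 to 1.02 on Late arrays. Of 12 markers of suprabasal and cornified keratinocytes, 5 were lower and 1 higher in the first period, and 5 were higher and 3 lower in the second. Of the 6 bright ones 5 were lower and then 4 higher, with none called the other way. The mean levels of the 12 were 1.62 to 2.95, 1.08 to 2.49 and 1.93 to 2.69. Of 13 leukocyte markers, 5 were higher and 1 lower in the first period, and 2 were higher and 7 lower in the second, but of the 5 bright ones 0 were higher and 1 lower, and then 2 higher and 1 lower. Their mean levels were −1.13 to 0.26, −0.94 to 0.11 and −1.21 to −0.31. CD4 and ITGAM, which were among the markers called, were well above background on 0 arrays. Over all 15008 probes the shares were those given above, 45.3% higher in the first period and 44.6% lower in the second. The part of these cells in the levels of the receptors and ligands was not tested.

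Other genes of the pathway were counted over probes well above background on all 9 arrays of both stages, because the median first period difference was 0.08 over such probes and 0.32 over all. Among them 35.0% were higher and 26.9% lower in the first period, 37.8% higher and 30.4% lower in the second, and 15.6% higher and 7.76% lower in the total period. Of the neuregulins, the ligands of ERBB3 and ERBB4, NRG1 alone was measured in this way at all 3 stages. Its first period rise was 1.09 (SE 0.16, limma adjusted P = 1.52e-05), its second period difference was −0.44 (SE 0.16, adjusted P = 0.0182), and its total period difference was 0.64 (SE 0.16, adjusted P = 0.00733). NRG2 was not well above background on 3 Middle arrays, and NRG3 and NRG4 were so on at most 3 arrays of any stage.

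Of 7 genes of ligand shedding, 1 was higher and 3 lower in the first period, and 4 were higher and 1 lower in the second. ADAM9, a membrane protease, had differences of 0.60 and −1.06 (SE 0.12 each, adjusted P = 0.000279 and 4.46e-07), and it was the 1 gene of 9 called in the total period, at −0.46. CD9, a tetraspanin that associates with the HBEGF precursor, had differences of −1.09 and 1.44 (SE 0.16 each, adjusted P = 1.26e-05 and 2.47e-07).

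Of 14 adaptors and RAS-MAPK genes, 4 were higher and 6 lower in the first period, and 9 were higher and 2 lower in the second. MAP2K1, the kinase that phosphorylates ERK, had the largest fall of the list, −1.69, and then the largest rise, 1.68 (SE 0.11 each, adjusted P = 3.07e-09 and 8.4e-10). PTPN11, the phosphatase SHP2, went the other way, with 1.64 and −1.69 (SE 0.17 each, adjusted P = 3.06e-07 and 7.54e-08). Over the total period 5 of 17 were higher and 0 lower, led by MAPK3, which encodes ERK1, at 0.64 (SE 0.11, adjusted P = 0.00038).

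Of 13 genes of the PI3K-AKT, PLCG and STAT arms, 2 were higher and 6 lower in the first period, and 7 were higher and 3 lower in the second. AKT1, a kinase downstream of PI3K, had differences of −1.10 and 1.11 (SE 0.14 each, adjusted P = 4.14e-06 and 1.9e-06). PIK3CD, a catalytic subunit of PI3K known from leukocytes, had 0.66 and −1.55 (SE 0.19 each, adjusted P = 0.00476 and 8.84e-07), and −0.90 over the total period (adjusted P = 0.00212).

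Of 14 feedback inhibitors and genes of receptor downregulation, 3 were higher and 6 lower in the first period, and 7 were higher and 3 lower in the second. ERBB2IP, whose product Erbin binds ERBB2, rose by 1.69 in the first period (SE 0.18, adjusted P = 3.92e-07). USP8, a deubiquitinase that acts on endocytosed EGFR, fell by 1.38 (SE 0.12, adjusted P = 6.28e-08). In the second period DUSP1, a phosphatase of MAP kinases, rose by 1.88 (SE 0.23, adjusted P = 1.06e-06) and PTPN12, a tyrosine phosphatase, fell by 2.26 (SE 0.19, adjusted P = 9.83e-09). Over the total period 5 of 24 were higher and 2 lower, with RASA1, a RAS GTPase-activating protein, at 0.63 (SE 0.21, adjusted P = 0.0387) and PTPN12 at −0.79 (SE 0.19, adjusted P = 0.00563).

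Of 9 immediate response genes, which growth factor signals are known to induce, 1 was higher and 4 lower in the first period, and 4 were higher and 2 lower in the second. FOS, a subunit of the transcription factor AP-1, had differences of −1.75 and 1.28 (SE 0.32 each, adjusted P = 0.000111 and 0.00136). JUN, its partner in AP-1, had 0.52 and −0.94 (SE 0.18 each, adjusted P = 0.0184 and 0.000161). Over the total period 2 of 9 were higher and 0 lower, with FOSL2 at 0.40 (SE 0.13, adjusted P = 0.0371).

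**Figure D4:**
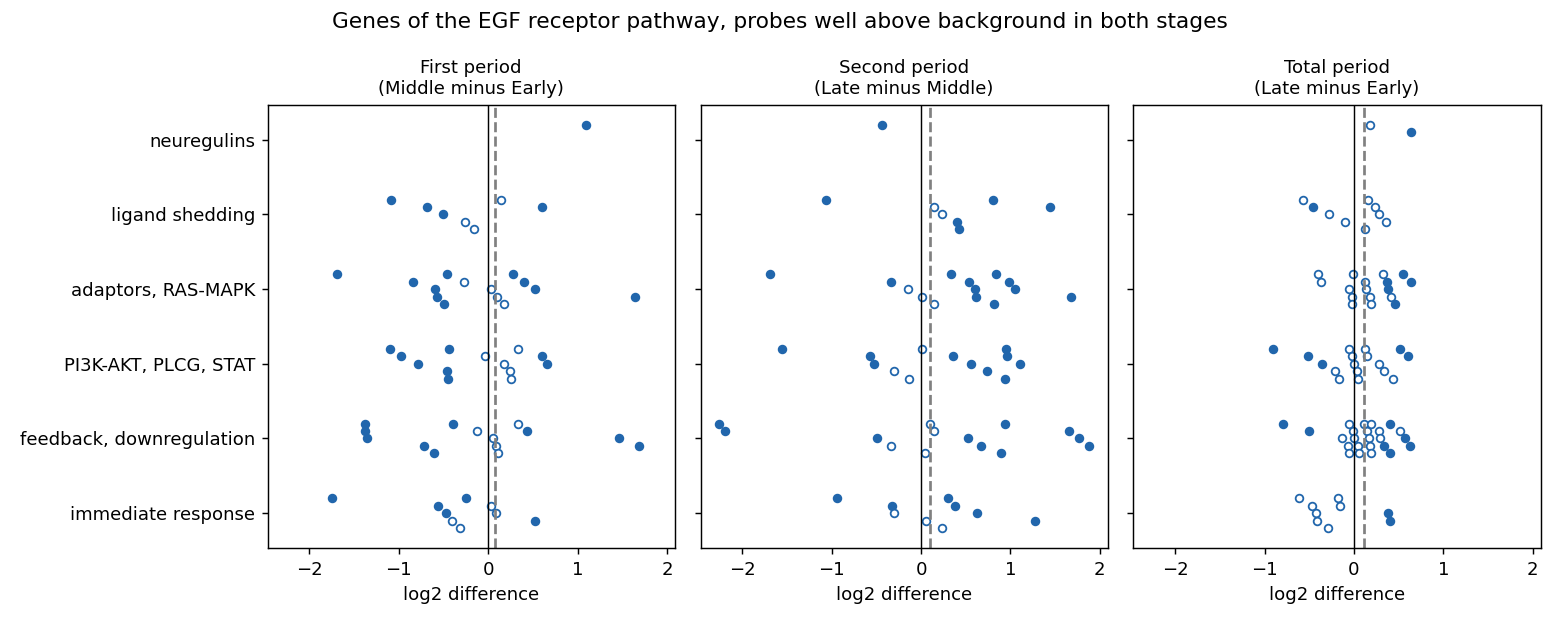
Log2 difference (horizontal axis) of the other pathway genes, 1 point per gene, by list and period, for probes well above background on all 9 arrays of both stages. Filled points had an adjusted P below 0.05 and the dashed line is the median of all such probes, 0.08, 0.10 and 0.11. MAP2K1 at −1.69 and PTPN11 at 1.64 mark the ends of the RAS-MAPK list in the first period.

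Apart from EGF, which was well above background on too few arrays to be included, the genes whose levels followed each member most closely over the 27 arrays were sought among 6797 probes well above background on all arrays. Arrays share stage, slide and brightness, so the correlations are a description. ERBB2 was closest to CA12, a membrane-bound carbonic anhydrase, with Pearson's r of 0.97, and r was 0.91 after the stage means were subtracted. SELENBP1 and NDUFA9 followed, each with r of 0.90. EGFR was closest to RBM41 (0.89, and 0.81 within stages), then ZNF577 and ARID4B (0.85 each). ERBB3 was closest to PNPLA2, the triglyceride lipase ATGL (0.87, and 0.86 within stages), then SUOX and GPT (0.85 each). BTC was closest to EID1 (0.89, and 0.83 within stages), then PTPN7 (0.79) and FKBPL (0.75). HBEGF was closest to CLCN2 (0.81, and 0.67 within stages), then CES3 and NDUFS7 (0.74 each). AREG was closest to TMEM171 (0.88), then PISD and NOCT (0.87 each), and within stages these fell to 0.60, 0.53 and 0.67.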

How the data were processed

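Total RNA of 27 RE biopsies, from 9 cattle at 3 stages, was measured on 1-color arrays. Spot intensity was deposited by the authors as Agilent Feature Extraction writes it, after background subtraction. The output names version 11.0.1.1 and the submitters' processing notes name 9.5. The deposited flags, 0 or 1 for well above background, saturated or outlier, are of the same output. No member spot was saturated or an outlier. The authors also deposited log2 values, the series matrix, which match log2 processed signal less the 75th percentile of its array (within 0.0207, column medians −3.07 to −2.60) and were used as an alternative. The extract protocol in the labels names other tissues than the RE, whereas the tissue label names the RE. The keratinocyte markers show an epithelium but not which one.

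Log2 processed signal minus the array median was fitted in R 4.3.3 with limma 3.58.1 (lmFit and eBayes, statmod 1.5.0), with 1 mean per stage, a block for the animal and Benjamini-Hochberg adjustment over 15008 probes. Outlier spots were left missing and spots of a probe averaged. The 9 cattle gave a biopsy at every stage, and the running number in the labels was taken as the animal, which pairs the arrays. The pairing rests on that number, which also follows the slide in part. After subtraction of stage means, arrays correlated with a mean of 0.158 within an animal (above 0 in 24 of 27 pairs) and −0.02 between animals. P values therefore rest on the spread left within these 9 cattle after the animal and stage means, pooled over all stages. In the total period the median SE over all probes was 0.19, and 20.1% of them were DEGs. With only the stages compared in the fit, that SE was 0.12 and 32.1% were DEGs.

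Members and lists were chosen with earlier results of these data known. Named genes were all members, per list and period the most raised and most lowered DEG well above background on all arrays of both stages, and the 3 genes closest to each member. The result of 1 gene that this rule names is not reported here. NRG2, NRG3 and NRG4 were named because the list is small, and CD4 and ITGAM after their values were seen. RefSeq (ARS-UCD2.0) was used for names only and matched 11194 probes. The model was tested on simulated data. Alternatives were other scalings (75th percentile, quantile, cyclic loess), normexp with an offset of 50, dim probes left out, outlier spots kept, the series matrix, no animal block, slide and scan day, the methods' t-test, only the stages compared, and each animal left out. The normexp offset of 50 was larger than the median processed signal of every array, which was 8.22 to 48.7. The part of that offset in the normexp values was not tested. Leaving out the 3 dimmest Middle arrays was chosen after the data were seen. Precision is limited by 9 arrays a stage and by signal over background.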

Additional observations from a re-analysis of the deposited data

Results flagged for a closer look

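The EREG level of animal 1 at the Late stage was −5.14, far below the nearest of the other 8 arrays at −3.02. The gap was 0.501 of the range, past Dixon's limit for 9 arrays. It was the 1 value of this kind among 24 sets of 9 arrays, and chance gives about 1 in 20. The spot was not well above background. Without animal 1 the EREG difference was −0.48 in the second period (adjusted P = 0.0476) and 0.43 in the total period (adjusted P = 0.186).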

How the results depend on the processing

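Of 6 members, 5, 4 and 2 were DEGs in the first, second and total periods. Without the replicate block for the animal, 3, 4 and 2 were called. Cyclic loess, which tested only the 2 bright members EGFR and ERBB3, called 2, 2 and 0. Normexp called 2 in the first period, ERBB2 and EGF, of which EGF was not called in the main fit. The slide as a random block called 3, 1 and 0, against 45.5, 50.1 and 1.67% of all probes, and as a fixed block 1 in the first period, against 8.26%. Slide 2 alone called 0 (limma, 1 at an unadjusted P below 0.05), against 0.0467%, and the first scan day 3. Without the 3 dimmest Middle arrays 2 were called in the second period. Leaving out each animal gave 4 to 5, 3 to 4 and 2 to 2. The methods' t-test gave 4, 3 and 2 members at the methods' threshold, which is after Benjamini-Hochberg adjustment, and 5, 3 and 3 at an unadjusted P below 0.05.

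The share of DEGs that were higher was 68.0, 37.7 and 55.6% in the 3 periods, 70.9, 29.4 and 34.1% with 75th percentile scaling, and 51.3, 51.3 and 49.6% with quantile normalization. The median difference of all probes in the second period was −0.27, −0.46 and −0.04 in these settings.

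Called differences that turned sign were 4 of 346. With normexp EGFR was −0.03 and 0.16 in the first and second periods and HBEGF was 0.09 in the first, and under the fixed slide block ERBB3 was 0.16 in the first. Another 45 kept their sign and lost the call. Uncalled differences turned as follows. In the second period BTC was −0.14 with 75th percentile scaling and the series matrix, −0.04 with quantile normalization, −0.06 without the dimmest Middle arrays, and −0.07 to 0.14 without each animal. In the total period EGFR was −0.03 with 75th percentile scaling, cyclic loess and the series matrix, and −0.07 to 0.13 without each animal, and ERBB3 was −0.04 with 75th percentile scaling and the series matrix, −0.11 with quantile normalization and −0.12 with cyclic loess. EGF was 0.23 and −0.23 with normexp in the first and second periods, −0.26 and −0.38 under the random slide block in the second and total periods, and −0.19 to 0.13 and −0.11 to 0.60 without each animal in the first and second. EREG was −0.01 to 0.43 in the total period without each animal. The cause was not tested. Dim probes limit EGF, EREG and HBEGF most.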
